A study of Mus musculus with 17 samples.

Results

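The unfolded protein response and the integrated stress response were followed through 10 genes in bulk RNA sequencing of mouse prefrontal cortex: Eif2ak3, Xbp1, Atf4, Atf3, Ddit3, Hspa5, Asns, Chac1, Sesn2 and Trib3. They were taken from the deposited count table of 56953 genes by their symbols. The 10 symbols gave 11 entries, because Ddit3 was listed at 2 Ensembl identifiers, and 10 of the 11 passed the filter on low counts, among 23062 genes tested. The filter looked for a minimum count in about as many libraries as the smallest genotype held, and the second Ddit3 entry was the one left out.

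All mice were on the B6C3F1/J background and 8 months old according to the extraction protocol and the methods, although a legend of the study gives an age 1 month higher. The libraries labelled WT (5) came from mice with neither modification. Those labelled hTau (6) came from the PS19 line, which carries a transgene for human Tau with the P301S mutation under the mouse prion protein promoter. Those labelled CgA-KO/hTau (6) carried the same transgene and lacked Chga, the gene of chromogranin A, congenitally in the whole body. By design, hTau and CgA-KO/hTau share the transgene and differ by Chga. Per the methods, the knockout was made on a mixed-strain background and brought into B6C3F1/J by backcrossing. Strain differences that may remain near Chga were not examined. The transgene is expressed over much of the nervous system, and the knockout is not restricted to neurons. No WT mice lacking Chga were among these libraries, so the effect of the knockout without the transgene was not analysed here.

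When unfolded proteins build up in the endoplasmic reticulum, the sensors PERK, IRE1 and ATF6 are released from the chaperone BiP. PERK phosphorylates the initiation factor eIF2, which lowers general translation while the mRNA of the transcription factor ATF4 is translated more, and ATF4 turns on genes for amino acid supply, for further transcription factors such as CHOP and ATF3, and for feedback inhibitors. The kinases GCN2, PKR and HRI reach the same eIF2 site from amino acid shortage, double-stranded RNA and haem shortage, which is why the shared branch is called the integrated stress response. IRE1 splices the Xbp1 mRNA, and spliced XBP1 and ATF6 turn on chaperone and degradation genes. In tauopathy brains, phosphorylated PERK and eIF2 have often been examined as markers of this response. Splicing of Xbp1, phosphorylation and the translation of Atf4 do not show in counts per gene.

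The total count per library was 8838334 to 227651681, with WT replicate 4 the lowest. Chga was at 0 in all 6 CgA-KO/hTau libraries and at 151.7 to 180.1 CPM (each count as a share of its TMM-scaled library total) in the other libraries. Several measures moved with genotype and within CgA-KO/hTau. The mitochondrial share of counts was 2.56% to 4.59% in hTau and 3.53% to 7.94% in WT, and it was 15.3%, 18.2%, 13.8%, 3.84%, 6.63% and 10.9% in CgA-KO/hTau replicates 1 to 6. Prnp, whose promoter drives the transgene, was at 747.6 to 914.5 CPM in WT and 1974 to 2368 CPM in hTau. It was at 1236, 1316, 1348, 2079, 1710 and 1676 CPM in CgA-KO/hTau replicates 1 to 6. Mapt, the mouse Tau gene, was at 198.6 to 739.6 CPM in WT and 831.4 to 951.9 CPM in hTau. In CgA-KO/hTau it was at 613.9, 622.2, 584, 817.5, 868.4 and 721.9 CPM. How far these 2 genes read the transgene was not tested. In every genotype the Y-linked gene Ddx3y exceeded 1 CPM in the libraries numbered 1 to 3 only, so that each genotype held both classes. The study states that its sequenced groups held 3 males and 2 or 3 females, which matches the sizes of these classes. The summed level of 8 striatal neuron markers was 857.3 to 2513 CPM in WT, 110.6 to 169.2 CPM in hTau, and 117.9 to 1334 CPM in CgA-KO/hTau, with replicates 1 and 3 the highest of CgA-KO/hTau. All 5 neuron markers and all 5 cortical neuron markers were detected in each genotype, and so were the 8 striatal ones. Their levels were not even within CgA-KO/hTau. The neuron markers summed to 5795, 8367 and 5339 CPM in replicates 1 to 3 and to 9290, 10900 and 13810 CPM in replicates 4 to 6. For the cortical neuron markers these sums were 367.5, 632.5 and 362.6 CPM against 701.9, 843.4 and 857.8 CPM. For 5 oligodendrocyte markers they were 2727, 2371 and 2737 CPM against 1448, 1384 and 1502 CPM. In bulk tissue, fewer cells of a type and less RNA per cell cannot be told apart.

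Per kilobase of exon (the union of exons in GENCODE M21), the levels of the members spanned a wide range. Hspa5, which encodes BiP, had the highest mean in each genotype, with 76.0 ± 28.1 CPM per kb in WT (SD, n = 5), 48.8 ± 14.8 in hTau (SD, n = 6) and 41.9 ± 16.7 in CgA-KO/hTau (SD, n = 6). Its libraries lay apart from the next gene in WT, and overlapped with those of Atf4, the next gene by mean, in hTau and in CgA-KO/hTau. Asns and Atf4 followed, at 30.9 ± 1.03 and 29.9 ± 8.33 CPM per kb in WT, and their libraries overlapped in each genotype. Ddit3 (12.9 ± 1.89 CPM per kb in WT) and Xbp1 (12.4 ± 1.72) came next and also overlapped. Eif2ak3 (5.12 ± 0.323), Sesn2 (3.15 ± 0.824) and Chac1 (2.35 ± 0.592) were lower in WT, where Eif2ak3 did not overlap with Sesn2 while Sesn2 and Chac1 did overlap. Trib3 and Atf3 were the lowest, at 0.191 ± 0.116 and 0.174 ± 0.110 CPM per kb in WT, more than an order of magnitude under the next gene. The order changed in 2 places between genotypes: Atf4 stood above Asns in hTau and CgA-KO/hTau, with overlapping libraries, and Atf3 stood above Trib3 there, without overlap in CgA-KO/hTau.

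The ATF4 and XBP1/ATF6 branches are read at short promoter motifs, so the promoters of the members are shown where a motif was found. The 250 bases before each start site were taken from RefSeq (GRCm38.p6, the same assembly as mm10) for all 10 members and searched on both strands. The motifs were the C/EBP-ATF response element (CARE, TGATGNAA), the ER stress response element (ERSE, CCAAT and CCACG with 9 bases between) and its second form (ERSE-II, ATTGG and CCACG with 1 base between), the unfolded protein response element (UPRE, TGACGTGG) and the cAMP response element (CRE, TGACGTCA). ERSE and ERSE-II share the letters CCACG, and UPRE and CRE share TGACGT. Hspa5 held an ERSE, Atf3, Asns and Chac1 each held a CARE, and the other 6 members held none of the 5 in this window. Among 32851 promoters searched the same way, 3.45% held a CARE, 0.113% an ERSE, 0.0304% an ERSE-II, 0.563% a UPRE and 1.55% a CRE. A match is a description of the letters, and no binding was measured. The stretches of 30 bases around the matches are printed 5′ to 3′ on the strand of the gene, with the motif in capitals:
Hspa5, ERSE at -65 to -47 from the start, chr2:34772020-34772049, plus strand: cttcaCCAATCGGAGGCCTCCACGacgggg
Atf3, CARE read on the opposite strand at -110 to -103, chr1:191183425-191183454, minus strand: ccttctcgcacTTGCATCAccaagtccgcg
Asns, CARE at -23 to -16, chr6:7693214-7693243, minus strand: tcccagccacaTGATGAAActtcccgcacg
Chac1, CARE read on the opposite strand at -193 to -186, chr2:119351038-119351067, plus strand: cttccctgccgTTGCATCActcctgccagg
The stretches of Atf3 and Chac1 hold the same 8 letters, which are the reverse complement of a CARE. RefSeq and GENCODE M21 place some starts differently: for Hspa5, 120 of the 250 bases lie within an exon of a longer GENCODE transcript, and for Asns 45 do.

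The first comparison, hTau against WT, asked how the transgenic line differed from mice without it. None of the 10 members passed an FDR under 0.05 by edgeR's quasi-likelihood test, against 5.90% of all genes tested (1.95% higher, 3.95% lower). At an unadjusted p under 0.05, 2 members were higher and 1 was lower, where 20.9% of all genes were past that limit. DESeq2 called none of the 10 members either, where it called 9.81% of all genes. Limma voom called 1, Sesn2, where it called 17.2% of all genes. The median log2 fold change of the 10 members was 0.09, against 0.01 over all genes, with 7 above 0 and 3 below.

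Hspa5, the chaperone that holds the 3 sensors inactive, had 223.0, 521.2, 246.3, 288.7 and 326.9 CPM in WT, and from 148.1 to 277.0 CPM with a median of 195.3 CPM in hTau. The highest hTau libraries lay within the WT range, and WT replicate 2 was the highest of all. The log2 fold change was -0.64 ± 0.27 (SE), with a 95% interval from -1.21 to -0.06 and an adjusted p of 0.188 by edgeR's quasi-likelihood test. It was not called.

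Sesn2, a target of ATF4 and p53 that restrains mTORC1 signalling, had 12.3, 12.2, 10.9, 6.04 and 13.2 CPM in WT, and from 13.3 to 18.9 CPM with a median of 14.8 CPM in hTau. Each hTau library was above each WT library, though hTau replicate 1 lay next to WT replicate 5, and 5.13% of all genes had hTau libraries that lay above WT in the same way. The log2 fold change was 0.47 ± 0.19 (SE; 95% interval 0.06 to 0.87), with an adjusted p of 0.168 by edgeR. Chac1, an ATF4 target that breaks down glutathione, had 5.00, 3.77, 4.38, 2.40 and 3.70 CPM in WT, and 4.92 to 7.47 CPM (median 5.34 CPM) in hTau. The groups met only at WT replicate 1, which lay above 1 hTau library. Its log2 fold change was 0.55 ± 0.23 (SE; 95% interval 0.06 to 1.03; adjusted p = 0.179 by edgeR). For both genes WT replicate 4, the shallowest library, gave the lowest value, with 53 counts for Sesn2 and 21 for Chac1. Without it the log2 fold change of Sesn2 was 0.33 (adjusted p = 0.297 by edgeR).

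The other members differed less between hTau and WT. Atf4 had a log2 fold change of 0.36 (95% interval -0.24 to 0.95) and varied from 43.1 to 92.2 CPM within WT and from 55.8 to 123.5 CPM within hTau. Eif2ak3, the gene of PERK, had 0.12 (-0.10 to 0.34), Ddit3, the gene of CHOP, 0.14 (-0.06 to 0.34), and Asns, asparagine synthetase, 0.07 (-0.29 to 0.43) on the same log2 scale. Xbp1 had -0.08 (-0.35 to 0.18). Each of these intervals lay within 2-fold in either direction. Atf3 had 0.01 (-0.98 to 0.99) and Trib3, a feedback inhibitor induced by ATF4 and CHOP, -0.25 (-1.41 to 0.90), wider intervals at low counts, within which smaller changes were not detectable. Both were at 0 counts in WT replicate 4, a depth at which a count of 0 allows up to 1.03 CPM, above each of their values in the other WT and hTau libraries.

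**Figure D1:**
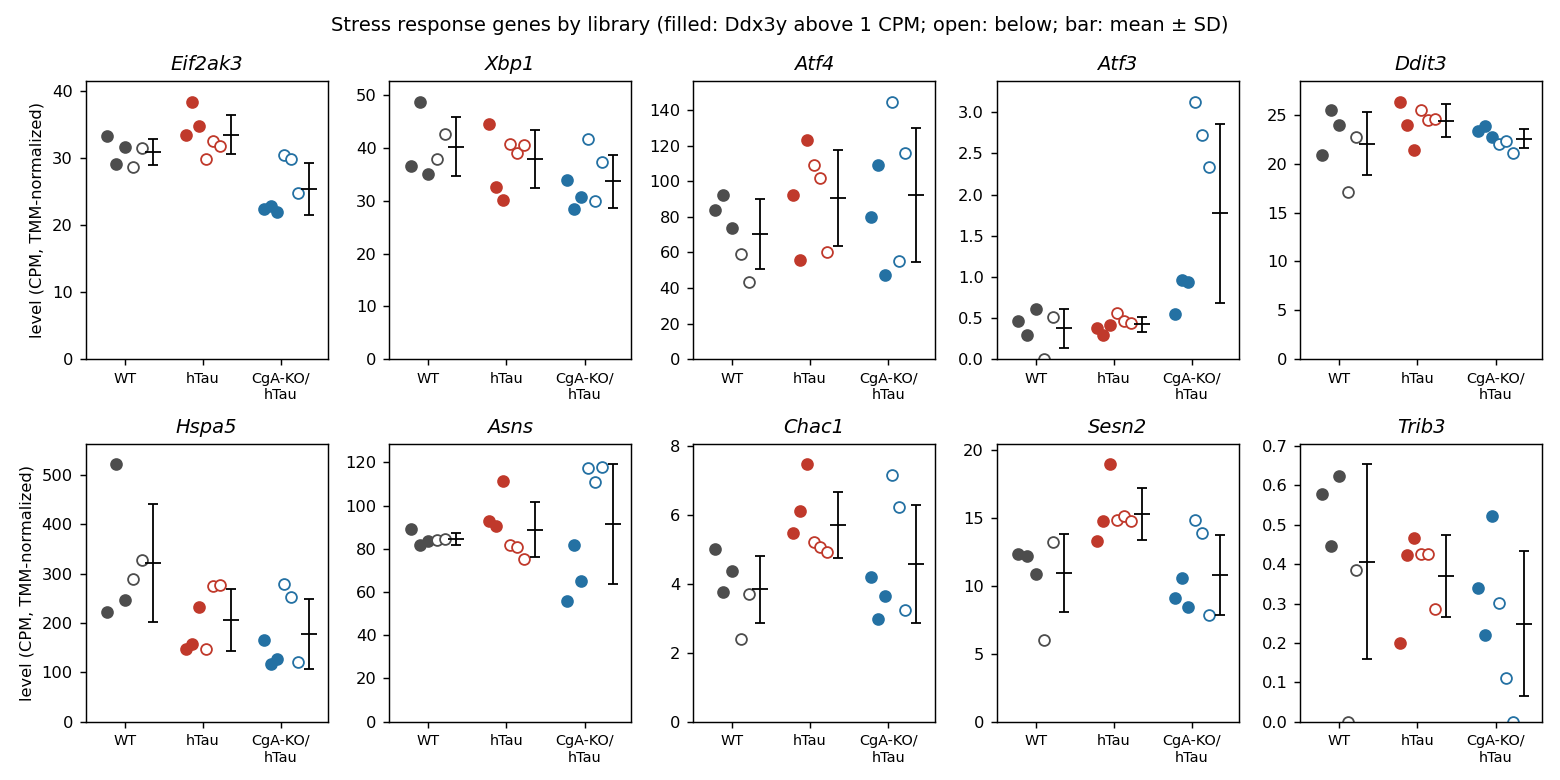
Level of each member (CPM, TMM-normalized, linear axes from 0) in 5 WT, 6 hTau and 6 CgA-KO/hTau libraries, in replicate order within a genotype. Filled points are libraries with Ddx3y above 1 CPM, open points those below, and the bar at the right of each group is the mean ± SD. Atf3 lies between 2.34 and 3.13 CPM in the 3 open CgA-KO/hTau points and below 1 CPM in each other library, and Sesn2 lies higher in each hTau library than in WT.

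The second comparison, CgA-KO/hTau against hTau, asked how mice with the transgene differed when Chga was lacking. In it 1 member rose and 1 fell at an FDR under 0.05, where 9.72% of all genes were called (5.50% higher, 4.22% lower). Atf3 rose and Eif2ak3 fell. The median log2 fold change of the 10 members was -0.20, against 0.03 over all genes, and 7 of the 10 were below 0. None of the 10 had libraries that did not overlap between these genotypes, where 6.63% of all genes did.

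Atf3 encodes a transcription factor induced by stress through ATF4 and also by neuronal injury and activity, as an early response gene. It had between 0.288 and 0.562 CPM with a median of 0.426 CPM in hTau, and 0.553, 0.956, 0.936, 3.13, 2.73 and 2.34 CPM in CgA-KO/hTau replicates 1 to 6. In WT it had 0.463, 0.292, 0.603, 0 and 0.512 CPM. CgA-KO/hTau replicate 1 lay just below the highest hTau library, and the other CgA-KO/hTau libraries lay above all hTau libraries and above the 4 WT libraries with a count. The 0 count in WT replicate 4 allows up to 1.03 CPM, which only CgA-KO/hTau replicates 4 to 6 exceeded. The deposited counts behind these values were 31 to 352 in CgA-KO/hTau and 21 to 100 in hTau. The log2 fold change against hTau was 2.06 ± 0.43 (SE; 95% interval 1.16 to 2.96), a 4.16-fold higher level, with an adjusted p of 0.0086 by edgeR's quasi-likelihood test. Leaving out each library in turn gave log2 fold changes from 1.82 to 2.24 and kept the call each time.

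The rise of Atf3 differed in size among the CgA-KO/hTau libraries. The 3 libraries with Ddx3y below 1 CPM (replicates 4 to 6) had 2.34 to 3.13 CPM and the 3 above had 0.553 to 0.956 CPM. Within the libraries above 1 CPM of Ddx3y the log2 fold change was 1.20 (adjusted p = 0.0355 by edgeR), and within those below it was 2.47 (adjusted p = 0.0739 by edgeR). The difference between the 2 folds did not pass its own interaction test (adjusted p = 0.171 by edgeR). Replicates 4 to 6 also had the highest summed level of 10 immediate early genes of activity and handling, at 2858, 3055 and 2624 CPM, against 393.4, 1037 and 367.3 CPM in replicates 1 to 3, 474.5 to 1281 CPM in hTau and 607.1 to 991.2 CPM in WT. No gene of that list was called in this comparison, and all 10 had log2 fold changes above 0. With the score of the list as a covariate, added after the data were seen, the log2 fold change of Atf3 was 1.64 (adjusted p = 0.00198 by edgeR), where 17.6% of all genes were called. Of the other settings chosen at that point, it was 3.08 with the mitochondrial share as a covariate (adjusted p = 0.00679 by edgeR, 0.325% of all genes called). It was 2.68 without WT replicate 4 and CgA-KO/hTau replicates 1 to 3 (adjusted p = 3.07e-05 by edgeR, 4.72% of all genes called). With hTau replicates 4 to 6 averaged, and CgA-KO/hTau replicates 1 and 3 averaged, it was 2.36 (adjusted p = 0.0448 by edgeR, 0.697% of all genes called). Whether activity or handling accounts for the rise was not tested.

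Eif2ak3, the sensor of the eIF2 branch, had 29.9 to 38.4 CPM with a median of 33.0 CPM in hTau, and 22.4, 22.9, 21.9, 30.5, 29.8 and 24.9 CPM in CgA-KO/hTau replicates 1 to 6. Replicate 4 lay within the hTau range, and the others lay below it. The log2 fold change was -0.40 ± 0.10 (SE; 95% interval -0.61 to -0.19), or 1.32-fold lower, with an adjusted p of 0.0202 by edgeR. WT had 33.4, 29.2, 31.7, 28.6 and 31.5 CPM. The fall was -0.65 on the log2 scale within the libraries with Ddx3y above 1 CPM (adjusted p = 0.00164 by edgeR) and -0.16 within those below (adjusted p = 0.561 by edgeR), and this difference passed its test, with an adjusted p of 0.0316 by edgeR for the interaction. The mitochondrial share of counts moved with it: the 4 CgA-KO/hTau libraries with shares of 10.9% to 18.2% had the lowest Eif2ak3 levels of all 17, and the 2 with 3.84% and 6.63% had 30.5 and 29.8 CPM. With the mitochondrial share as a covariate, added after the data were seen, the log2 fold change was -0.08 and was not called (adjusted p = 1 by edgeR), and 0.325% of all genes were. The share was 2.56% to 4.59% in hTau, and each CgA-KO/hTau library but replicate 4 lay above that range. The covariate therefore cannot be told apart from the genotype, and the cause of the fall was not tested. Without hTau replicate 2 the adjusted p was 0.0547, and without CgA-KO/hTau replicate 2 it was 0.0525, both by edgeR. With hTau replicates 4 to 6 averaged, and CgA-KO/hTau replicates 1 and 3 averaged, the adjusted p was 0.113 by edgeR. In that setting 0.697% of all genes were called.

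**Figure D2:**
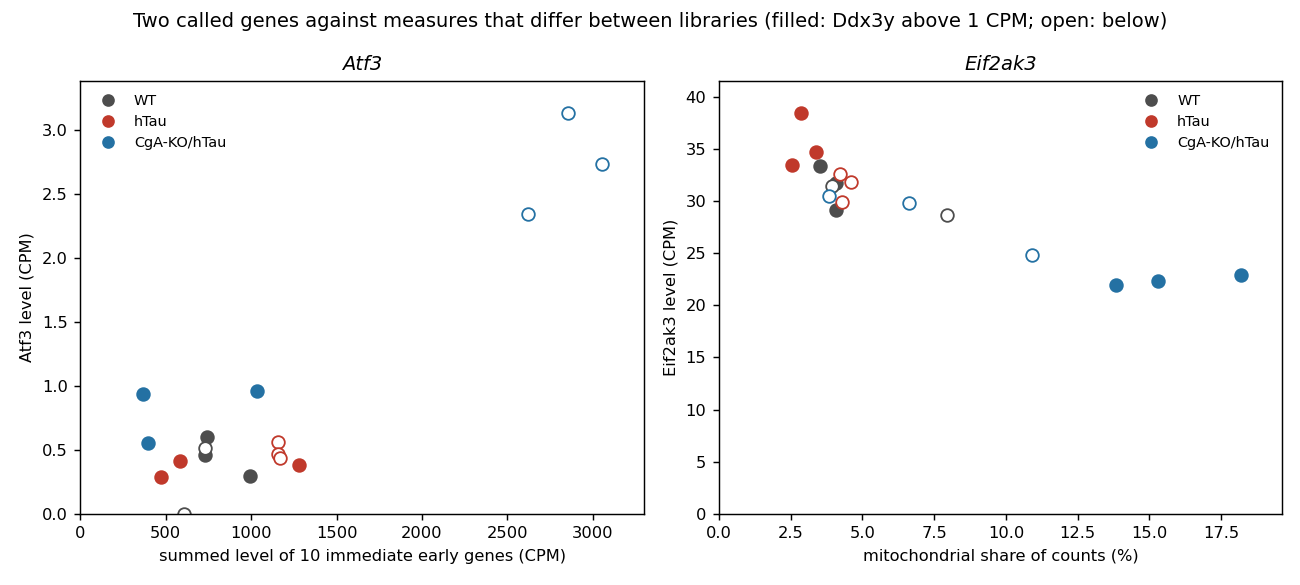
Left, Atf3 level (CPM) against the summed level of 10 immediate early genes (CPM) in each of 17 libraries. Right, Eif2ak3 level (CPM) against the mitochondrial share of counts (%). Colours give the genotype, filled points have Ddx3y above 1 CPM, and all axes start at 0. CgA-KO/hTau replicates 4 to 6 stand at 2624 to 3055 CPM of immediate early genes and 2.34 to 3.13 CPM of Atf3, and the 4 libraries with mitochondrial shares of 10.9% to 18.2% have Eif2ak3 between 21.9 and 24.9 CPM.

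Asns divided within CgA-KO/hTau. It had 55.6, 81.9 and 65.0 CPM in replicates 1 to 3 and 117.3, 110.7 and 118.0 CPM in replicates 4 to 6, while hTau had 75.3 to 111.3 CPM (median 86.0 CPM). WT was the narrowest group for this gene, with 89.3, 81.6, 83.7, 84.1 and 84.4 CPM. Over all libraries the log2 fold change against hTau was 0.04 (95% interval -0.30 to 0.38). Within the libraries with Ddx3y above 1 CPM it was -0.53 (adjusted p = 0.0224 by edgeR), and within those below it was 0.52 (adjusted p = 0.0485 by edgeR). The hTau libraries of the class below, replicates 4 to 6, were the closest to each other of all hTau libraries, and the tests took them as separate. The interaction passed its test (adjusted p = 0.00196 by edgeR), where 11.7% of all genes did. Against WT the same interaction passed (adjusted p = 0.0247 by edgeR), where 5.47% of all genes did. The mitochondrial share, the immediate early genes, the striatal, neuron, cortical neuron and oligodendrocyte markers and Prnp divided the same 6 libraries in nearly the same way. These measures and the Ddx3y class cannot be told apart within CgA-KO/hTau.

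Sesn2 had 9.10, 10.6, 8.43, 14.9, 13.9 and 7.85 CPM in CgA-KO/hTau replicates 1 to 6, of which replicates 4 and 5 lay within the hTau range and the others below it. The log2 fold change was -0.50 ± 0.18 (SE; 95% interval -0.89 to -0.12; adjusted p = 0.0836 by edgeR), which was not called. DESeq2 gave -0.49 and limma voom -0.53, and both called it. These tools called 15.2% and 22.7% of all genes in this comparison. Chac1 had 4.19, 2.97, 3.65, 7.17, 6.23 and 3.23 CPM, again with replicates 4 and 5 the highest, and a log2 fold change of -0.32 (95% interval -0.77 to 0.14). Within the libraries with Ddx3y above 1 CPM both were called lower, Sesn2 at -0.73 (adjusted p = 0.00749 by edgeR) and Chac1 at -0.80 (adjusted p = 0.0119 by edgeR). In that class 5 members were called in all, Atf3 higher and Asns, Chac1, Sesn2 and Eif2ak3 lower, where 31.1% of all genes tested there were called. In the other class 1 member was called, Asns, where 0.806% of all genes were.

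The remaining members did not pass the test between CgA-KO/hTau and hTau. Hspa5 had 165.5, 117.7, 127.8, 278.0, 251.7 and 121.9 CPM in CgA-KO/hTau replicates 1 to 6, and a log2 fold change of -0.22 (95% interval -0.77 to 0.33). Atf4 ranged from 47.5 to 144.9 CPM in CgA-KO/hTau, with a log2 fold change of 0.03 (-0.54 to 0.59). Ddit3 was the steadiest member, at 21.1 to 23.9 CPM in CgA-KO/hTau and 21.4 to 26.4 CPM in hTau (-0.11, from -0.30 to 0.08). Xbp1 had -0.17 (-0.43 to 0.08), and Trib3 -0.51 (-1.61 to 0.60) at 0 to 95 deposited counts per library.

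**Figure D3:**
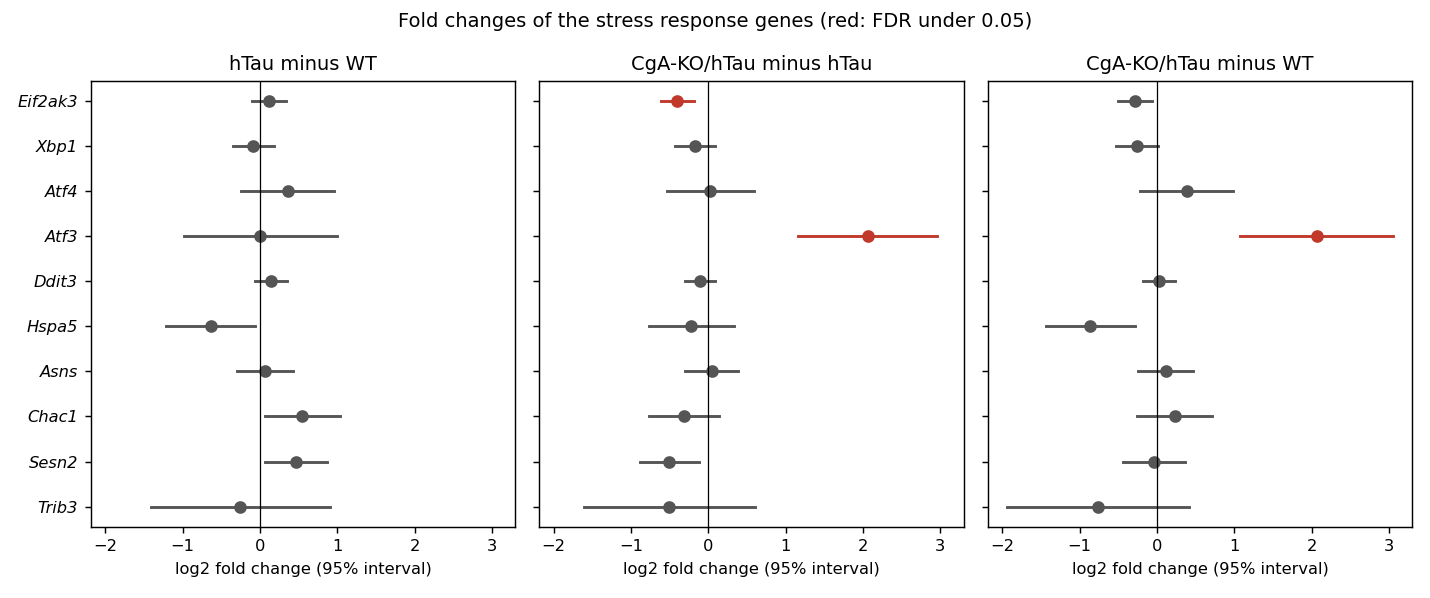
Log2 fold change (points) and 95% interval (lines) of the 10 members in hTau minus WT, CgA-KO/hTau minus hTau and CgA-KO/hTau minus WT, from 1 edgeR quasi-likelihood fit to 17 libraries. Red marks an adjusted p under 0.05: Atf3 in both comparisons of CgA-KO/hTau (2.06 in each) and Eif2ak3 against hTau (-0.40).

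The third comparison, CgA-KO/hTau against WT, shares its libraries with the first 2 and is not independent of them. Atf3 rose, with a log2 fold change of 2.06 ± 0.47 (SE; 95% interval 1.06 to 3.06; adjusted p = 0.0151 by edgeR), and was the 1 member called of 10, where 6.46% of all genes were called (3.56% higher, 2.89% lower). The call was lost within each Ddx3y class, at 0.85 above 1 CPM (adjusted p = 0.135 by edgeR) and 2.86 below (adjusted p = 0.0524 by edgeR, with 2 WT libraries), and with the striatal neuron score as a covariate (0.97, adjusted p = 0.202 by edgeR). Hspa5 had a log2 fold change of -0.86 ± 0.27 (SE; 95% interval -1.44 to -0.28), or 1.81-fold lower, with an adjusted p of 0.0702 by edgeR. It was not called here, and was called in 7 of 33 settings, among them DESeq2 at -0.85. Of the 6 CgA-KO/hTau libraries 4 lay below the lowest WT library (223.0 CPM). Eif2ak3 had -0.28 (-0.50 to -0.06; adjusted p = 0.114 by edgeR), and the other 7 members had intervals that held 0.

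Members that follow each other across libraries were described without a test, since the 17 libraries share genotype, tissue makeup and depth. Between members, the highest Pearson correlation of log2(CPM + 1) was 0.85, between Chac1 and Sesn2, and it was 0.81 after removal of the genotype means. Atf4 mRNA correlated with its targets at 0.41 for Asns, 0.28 for Chac1, 0.25 for Sesn2 and 0.13 for Ddit3. After removal of the genotype means these were 0.40, 0.18, 0.21 and 0.02. Outside the members, the tested gene most like Chac1 was Slc7a5 (r = 0.94), a large neutral amino acid transporter that is itself an ATF4 target, which had 60.2 to 71.7 CPM in hTau and 42.0 to 59.1 CPM in WT, with no overlap and no call (adjusted p = 0.134 by edgeR). The gene most like Sesn2 was Tkt (r = 0.96), like Eif2ak3 Sh2d3c (0.98), like Asns Khdrbs2 (0.93), like Ddit3 Macrod1 (0.90), like Xbp1 Tmem185a (0.84), like Hspa5 Gm26737 (0.83) and like Atf4 Gm47725 (0.73), each over 17 libraries. Gm26737 and Gm47725 were below 1 CPM on average. Atf3 and Trib3, below 1 CPM on average, were not searched.

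Beyond the members, 124 further genes of the pathway were listed in 6 roles, of which 121 were tested. In hTau against WT 2 rose and 3 fell, where 1.95% of all genes rose and 3.95% fell. The count of 5 was not stable: it was 1 without WT replicate 5, 2 without WT replicate 2 or any 1 of hTau replicates 2, 4, 5 and 6, 3 without hTau replicate 3, and at most 7. Map1lc3b, which encodes the autophagosome protein LC3B, rose by 0.50 ± 0.11 on the log2 scale (adjusted p = 0.00785 by edgeR), with 87.7 to 100.9 CPM in hTau and 71.3, 77.1, 73.3, 52.6 and 58.7 CPM in WT. Cebpg, the partner of ATF4 in binding CARE motifs, rose by 0.33 ± 0.09 (adjusted p = 0.0404 by edgeR), and its hTau libraries (40.1 to 46.0 CPM) lay above WT (29.3 to 38.6 CPM) without overlap.

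The genes that fell in hTau were Sec24d (-0.66, adjusted p = 0.018 by edgeR), a coat protein of vesicles leaving the endoplasmic reticulum, Slc7a3 (-0.74, adjusted p = 0.0328 by edgeR), a cationic amino acid transporter, and Calr (-0.54, adjusted p = 0.0354 by edgeR), the lectin chaperone calreticulin. Calr had 417.3 to 469.2 CPM in hTau and 490.7, 747.6, 532.1, 686.6 and 755.3 CPM in WT, without overlap. Of the 23 ER chaperones and folding enzymes, 18 had log2 fold changes below 0 with a median of -0.17, and of the 31 ATF4 targets in amino acid supply and tRNA charging, 27 were above 0 with a median of 0.19. Over all genes 11812 of 23062 were above 0, with a median of 0.01. The striatal neuron markers moved with this comparison, all 8 called lower in hTau, and WT replicate 5 had 1091 CPM of 5 choroid plexus markers against 12.9 to 17.7 CPM in the other WT libraries and 3.54 to 4.76 CPM in hTau. WT replicate 5 was also the highest library for Sec24d (22.1 CPM), Slc7a3 (11.9 CPM) and Hyou1 (185.7 CPM). With the striatal neuron score as a covariate, 31 of the 121 genes were called, 8 higher and 23 lower, where 16.9% of all genes were called. The score was 0.993 to 2.963 in WT and -1.684 to -1.434 in hTau, without overlap. This covariate therefore cannot be told apart from the genotype in hTau against WT.

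**Figure D4:**
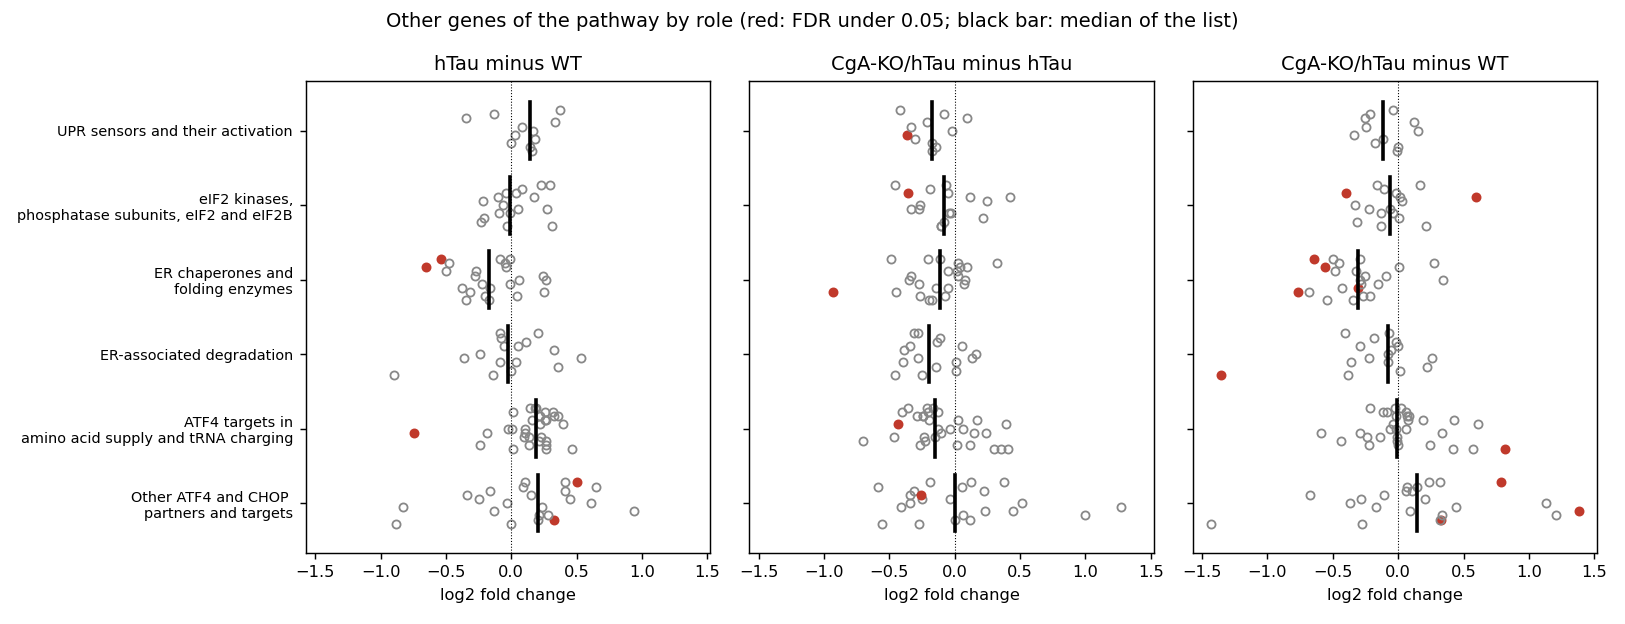
Log2 fold change of 121 other pathway genes in 6 roles (rows) for the 3 comparisons. Each point is a gene, red points have an adjusted p under 0.05, and the black bar is the median of the role. The median of the ER chaperones and folding enzymes is -0.17 in hTau minus WT and -0.30 in CgA-KO/hTau minus WT, and that of the ATF4 targets in amino acid supply is 0.19, -0.15 and -0.01 in the 3 comparisons.

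In CgA-KO/hTau against hTau none of the 121 rose and 5 fell by edgeR, where 5.50% and 4.22% of all genes did. At an unadjusted p under 0.05, 11 were higher and 27 lower, against 14.9% and 12.9% of all genes, and DESeq2 called 5 higher and 10 lower, where it called 15.2% of all genes. The edgeR count of 5 became 20 without CgA-KO/hTau replicate 4, 17 without WT replicate 4 and 10 without CgA-KO/hTau replicate 5, and it was 0 without hTau replicate 6, 1 without hTau replicate 2 or 5 or CgA-KO/hTau replicate 2 or 3, and 2 without hTau replicate 3 or 4 or CgA-KO/hTau replicate 1. The share of all genes called moved as well, from 9.72% to 17.3%, 15.0% and 12.2% in the first 3 of these settings. It was 5.88% without hTau replicate 6, and 4.46% to 6.35% in the settings with a count of 1 or 2. The 5 were Sesn1 (-0.26, adjusted p = 0.0275 by edgeR), a relative of Sesn2 and target of p53, Eif2b2 (-0.36, adjusted p = 0.0241 by edgeR), a subunit of the exchange factor that recharges eIF2, Creb3 (-0.37, adjusted p = 0.0466 by edgeR), a membrane-bound transcription factor, Slc38a2 (-0.43, adjusted p = 0.0331 by edgeR), a neutral amino acid transporter induced by ATF4, and Ssr1 (-0.93, adjusted p = 0.0344 by edgeR), a subunit of the translocon. Ssr1 had 248.3 to 282.1 CPM in hTau and 79.3, 163.7, 82.2, 94.2, 232.5 and 160.9 CPM in CgA-KO/hTau, and WT replicate 2 also had a low value of 91.2 CPM. Over the 121 genes 41 were above 0 and 80 below, with a median of -0.13.

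In CgA-KO/hTau against WT 5 of the 121 rose and 6 fell, where 3.56% of all genes rose and 2.89% fell. The count of 11 became 19 without CgA-KO/hTau replicate 4 and 18 without replicate 6, and it was 3 without WT replicate 5, 4 without CgA-KO/hTau replicate 2, 6 without WT replicate 2 or hTau replicate 5, and 7 without WT replicate 3, hTau replicate 2, 4 or 6, or CgA-KO/hTau replicate 3. The share of all genes called moved from 6.46% to 8.45% without CgA-KO/hTau replicate 4 and 8.07% without replicate 6. It was 2.76% without WT replicate 5, 3.70% without CgA-KO/hTau replicate 2, and 4.83% to 5.75% in the settings with a count of 6 or 7. Atf5, a transcription factor related to ATF4, rose by 0.78 ± 0.13 on the log2 scale (adjusted p = 0.0029 by edgeR), with 14.2 to 18.6 CPM in CgA-KO/hTau against 8.81 to 11.7 CPM in WT. Slc7a11, the cystine transporter, rose by 0.82 ± 0.16 (adjusted p = 0.00667 by edgeR), with 53.6 to 86.3 CPM against 35.0 to 46.3 CPM. Neither overlapped between the genotypes, and hTau lay between, at 9.87 to 15.7 CPM for Atf5 and 39.7 to 63.7 CPM for Slc7a11. Slc7a11 is also expressed in astrocytes, and CgA-KO/hTau replicates 1 to 3, which had its 3 highest values, had 1213 to 1374 CPM of 5 astrocyte markers against 627.6 to 892.7 CPM in WT and hTau. CgA-KO/hTau replicates 4 to 6 had 53.6 to 58.2 CPM of Slc7a11 and 644.1 to 878.3 CPM of the astrocyte markers. Whether astrocyte content accounts for the rise was not tested. Cebpg (0.33), Nupr1 (1.38), a stress-induced chromatin protein, and Eif2ak2 (0.60), the kinase PKR, also rose, each with overlap between the genotypes. The lowest CgA-KO/hTau library and the highest WT library were at 38.61 and 38.65 CPM for Cebpg. They were at 2.356 and 4.903 CPM for Nupr1, and at 6.099 and 8.897 CPM for Eif2ak2.

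Among the 6 that fell, Calr had a log2 fold change of -0.65 ± 0.14 (adjusted p = 0.0139 by edgeR), Hyou1, a chaperone that acts with BiP, -0.77 ± 0.19 (adjusted p = 0.0209 by edgeR), Eif2b2 -0.40 (0.0207), Derl3, a degradation channel gene, -1.36 (0.037) and Sec24d -0.56 (0.0404), with adjusted p-values by edgeR in parentheses. Derl3 was near the floor, at 0.342 to 1.35 CPM in WT and 0.0866 to 0.553 CPM in CgA-KO/hTau, with overlap. It had 3 deposited counts in WT replicate 4 and in CgA-KO/hTau replicate 6, and was highest in WT replicate 5. The remaining gene that fell, the chaperone calnexin (Canx, -0.30), lies outside the rule for named genes and was named after its value was seen. Of the 23 ER chaperones and folding enzymes 20 were below 0, with a median of -0.30, and 4 were called lower.

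The second Ddit3 entry is annotated as a transcript of 105 bases within the span of Ddit3 on chromosome 10 (127290829 to 127293753, plus strand; the main entry spans 127290774 to 127296288, GENCODE M21). It had 1 to 15 deposited counts in 16 libraries and 43 in CgA-KO/hTau replicate 6, so it is given as a value only. How the counting divided reads between the overlapping entries is not given in the sources used here.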

How the data were processed

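RNA from prefrontal cortex was sequenced by the authors as paired 100-base reads from a poly-A library. Per the labels, the methods and the submitters' processing notes, reads were trimmed with Trimmomatic 0.39, aligned to mm10 with STAR 2.7.10b, assembled with StringTie 1.3.6, and deposited as whole-number counts per gene, without normalization. The annotation release and strand setting are not given in the sources used here. About 3 deposited counts stood for 1 fragment at low counts, so a count of 0 was taken to allow 9 counts. This limit covers counting error only.

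The deposited counts were fitted by edgeR 4.0.16 under R 4.3.3 (TMM, filterByExpr, quasi-likelihood test, 17 libraries, 1 mean per genotype, two-sided, Benjamini-Hochberg over 23062 genes). The common biological coefficient of variation was 0.316. CPM values used TMM library sizes. Alternatives used DESeq2 1.42.0, limma 3.58.1 voom, other filters and scalings, covariates, Ddx3y classes and left-out libraries. The test was checked on simulated counts.

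The members and lists were chosen with earlier results of these data known. Named genes were all members, up to 5 called list genes per direction and comparison by smallest p (and Canx, added later), and the gene most correlated with each member above 1 CPM. Separate animals per library are not stated in each label, so p-values measure the spread between libraries. Replicate numbers did not pair the samples (correlations -0.23 to 0.44 between same-numbered libraries). The closest libraries, hTau replicates 4 to 6 and CgA-KO/hTau replicates 1 and 3, were averaged in 1 alternative. The scaled median absolute deviation of log2 ratios was 0.052 to 0.061 among hTau replicates 4 to 6, against 0.146 to 0.201 in other hTau pairs. It was 0.098 between CgA-KO/hTau replicates 1 and 3, against 0.219 to 0.592 in other CgA-KO/hTau pairs. The other settings took these libraries as separate. Sequences are from RefSeq GRCm38.p6.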

Additional observations from a re-analysis of the deposited data

Results flagged for a closer look

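In 33 groups of member values, a sample far from the others was looked for by the gap to the nearest library over the range, a rule that chance meets in about 1 of 20 groups. It picked out the second Ddit3 entry in CgA-KO/hTau replicate 6, with 1.242 CPM against 0.140 CPM in the next library, and Sesn2 in hTau replicate 3, with 18.95 CPM against 15.2 CPM in the next library.

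The change between genotypes differed between libraries with Ddx3y above and below 1 CPM for 2 members, by an interaction test with edgeR added after the data were seen. For Asns in CgA-KO/hTau minus hTau the difference of log2 fold changes (above minus below) was -1.08 (adjusted p = 0.00196 by edgeR), and in CgA-KO/hTau minus WT it was -0.78 (adjusted p = 0.0247 by edgeR). In the second of these the fold changes were -0.32 above and 0.46 below. For Eif2ak3 in CgA-KO/hTau minus hTau the difference was -0.52 (adjusted p = 0.0316 by edgeR). Over all genes 11.7% passed this test in CgA-KO/hTau minus hTau, 5.47% in CgA-KO/hTau minus WT and 0.0564% in hTau minus WT. The class falls together with mitochondrial share, immediate early genes, astrocyte, oligodendrocyte and neuron markers and Prnp within CgA-KO/hTau, and these cannot be told apart.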

How the results depend on the processing

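The number of members called at an FDR under 0.05 was 0 in hTau minus WT, 2 in CgA-KO/hTau minus hTau and 1 in CgA-KO/hTau minus WT. In hTau minus WT it became 1 with limma voom (Sesn2, 0.36) and 1 with the striatal neuron score as a covariate (Asns, -0.66). In these settings 17.2% and 16.9% of all genes were called. In CgA-KO/hTau minus hTau the number became 1 without 4 libraries (WT replicate 4 and CgA-KO/hTau replicates 1 to 3), with at least 10 counts in every library, with the closest libraries averaged, with the mitochondrial or the striatal covariate, with the replicate block and within Ddx3y below 1 CPM, and 5 within Ddx3y above. The share of all genes called was 4.72%, 14.8%, 0.697%, 0.325%, 5.96%, 2.84%, 0.806% and 31.1%, in the order named. The number became 3, with Sesn2 added, with DESeq2, limma voom and the immediate early gene covariate. There 15.2%, 22.7% and 17.6% of all genes were called. In CgA-KO/hTau minus WT it became 0 with at least 10 counts in every library, with only the 2 genotypes compared, with the replicate block and within Ddx3y below 1 CPM, 2 with DESeq2, with the Ddx3y, mitochondrial or striatal covariate, without the 4 libraries and within Ddx3y above, and 3 with the immediate early gene covariate. For the settings with 0, the share of all genes called was 9.36%, 266 of 20459 genes, 2.66% and 3.05%, in the order named. For those with 2 it was 9.87%, 7.66%, 253 of 23062 genes, 21.9%, 8.62% and 20.7%, again in that order. With the immediate early gene covariate it was 13.2%. The filter of at least 10 counts in every library removed Atf3 and Trib3, which had 0 counts in WT replicate 4. Leaving out each library gave 0 to 0, 1 to 3 and 1 to 3 members in the 3 comparisons. Against hTau it was 1 without hTau replicate 2 or CgA-KO/hTau replicate 2 and 3 without WT replicate 4 or CgA-KO/hTau replicate 4, and against WT it was 3 without CgA-KO/hTau replicate 4 and 2 without CgA-KO/hTau replicate 5. The pathway genes called ranged from 1 to 7, 0 to 20 and 3 to 19 over the same. The share of all genes called ranged from 2.79% to 7.21%, 4.46% to 17.3% and 2.76% to 8.89% over these settings.

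The rise of Atf3 was called in 31 of 32 settings against hTau and in 27 of 32 against WT, with adjusted p-values by edgeR, DESeq2 or limma voom up to 0.0739 and 0.202. The fall of Eif2ak3 against hTau was called in 25 of 33 settings, with adjusted p-values by the same tools from 0.00164 to 1. With the replicate block, the adjusted p by edgeR was 0.0396 for Atf3 and 0.0749 for Eif2ak3 against hTau, and 0.0754 for Atf3 against WT. The numbers did not pair the samples.

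Folds that were not called changed sign in several settings, and the cause was not tested. In hTau minus WT, Atf3 became -0.35 within Ddx3y above 1 CPM, -0.07 with voom, -0.12 with the replicate block and with the closest libraries averaged, -0.15 with the Ddx3y covariate and without the 4 libraries, -0.10 with counts divided by 3 and with the mitochondrial covariate, -0.11 with the immediate early gene covariate and -1.43 with the striatal covariate. With the striatal covariate, whose values did not overlap between WT and hTau, Atf4 became -0.33, Trib3 1.16, Asns -0.66 and Eif2ak3 -0.14. Asns became -0.01 with voom, -0.04 with the mitochondrial covariate and -0.06 within Ddx3y below, where Xbp1 became 0.02 and Trib3 0.49, and Trib3 became 0.08 with the block. In CgA-KO/hTau minus hTau, Asns became -0.53 within Ddx3y above, -0.03 with voom, -0.01 with no filter and -0.09 with the immediate early gene covariate. Atf4 became -0.18, -0.03, -0.02 and -0.07 in the same settings and -0.03 with the block, Trib3 0.01 within Ddx3y above, and Chac1 0.12 within Ddx3y below. With the mitochondrial covariate Hspa5 became 0.20, Chac1 0.45 and Sesn2 0.02, and Hspa5 became 0.07 without the 4 libraries. In CgA-KO/hTau minus WT, within Ddx3y above, Atf4 became -0.07, Asns -0.32 and Chac1 -0.27. Sesn2 became 0.31 within Ddx3y below, 0.02 with the closest libraries averaged, 0.40 with the mitochondrial covariate and 0.01 without the 4 libraries. Asns became -0.37, -0.04 and -0.06 with the striatal covariate, voom and the immediate early gene covariate, Atf4 -0.05 with the striatal covariate, and Ddit3 -0.03 with voom and -0.10 without the 4 libraries. Leaving out each library gave Atf3 -0.15 to 0.21 and Asns -0.01 to 0.11 in hTau minus WT, Atf4 -0.14 to 0.17 and Asns -0.04 to 0.15 in CgA-KO/hTau minus hTau, and Ddit3 -0.05 to 0.08 and Sesn2 -0.18 to 0.04 in CgA-KO/hTau minus WT. The mitochondrial and immediate early gene covariates, and the removal of the 4 libraries, were chosen after the data were seen.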
